A study of Homo sapiens with 28 samples.

Results

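N6-methyladenosine (m6A) on chromatin-associated RNA (caRNA) was mapped by methylated RNA immunoprecipitation sequencing in 3 established human cell lines, and the regions described here carried m6A peaks in K562, a chronic myelogenous leukaemia line with erythroid features, and in neither of the other lines. Overlapping peaks of the 14 immunoprecipitated (IP) libraries were merged on each strand of chromosomes 1 to 22 and X. This gave 86263 regions, of which 5461 had a peak in all 6 K562 libraries and in none of the 8 libraries of HepG2 (hepatoma) and NB4 (acute promyelocytic leukaemia) cells. The background share of regions that met this rule was 6.33%. Presence of a peak chose these regions, so their presence in K562 and absence elsewhere is a description and is not tested. They are called K562-only regions below, and each was assigned to a gene by its best summit, the one with the highest -log10 q over the K562 libraries.

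The K562 libraries were 2 of wild-type (WT) cells, 2 of Control cells and 2 of RBFOX2 knockdown (KD) cells. Control and KD cells carried a lentiviral short hairpin, non-targeting in Control and directed against RBFOX2 in KD, and were kept as puromycin-selected lines. The comparison libraries were 2 of HepG2 WT cells, 3 of NB4 Control cells and 3 of NB4 RBFOX2 KD cells. NB4 Control and KD cells carried a non-targeting and an RBFOX2 hairpin in the same way, and HepG2 cells carried none. The methods of the study speak of biological replicates, and the labels do not say whether libraries of a group came from separate cultures.

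Most m6A is deposited during transcription by a methyltransferase complex with METTL3 and METTL14 at its core, in a sequence context written DRACH (D is A, G or U, R is A or G, H is A, C or U), of which GGACU is a common form. In messenger RNA the mark is best known from long internal exons and the start of the 3′ UTR, around stop codons. RNA on chromatin also holds introns, promoter-derived transcripts and non-coding RNA that rarely reach the cytoplasm. A region can carry a peak in 1 line alone because its transcript is made there alone or because it is methylated there alone. The input libraries are not analysed here, and peak lists hold no transcript levels, so these cannot be told apart, nor can fewer cells with a transcript be told from less of it per cell.

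The sequences below show what lay under a selection of high-ranking summits outside UTRs, with 50 bases to either side of the best summit, on the strand of the peak (hg38, 5′ to 3′, DNA letters, DRACH matches in capitals). The first group holds regions of erythroid genes and of PRAME, a cancer-testis gene, taken from the gene lists described below.
SPTB, coding exon, chr14:64793338-64793438, minus strand: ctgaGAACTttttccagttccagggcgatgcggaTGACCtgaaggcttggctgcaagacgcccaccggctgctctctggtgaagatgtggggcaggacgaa
SPTB, coding exon, chr14:64786929-64787029, minus strand: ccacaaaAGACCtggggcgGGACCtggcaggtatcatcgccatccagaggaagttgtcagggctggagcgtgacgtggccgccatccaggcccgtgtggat
KEL, intron, chr7:142945186-142945286, minus strand: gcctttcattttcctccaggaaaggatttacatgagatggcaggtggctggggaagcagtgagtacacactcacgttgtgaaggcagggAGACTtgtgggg
PRAME, coding exon, chr22:22549936-22550036, minus strand: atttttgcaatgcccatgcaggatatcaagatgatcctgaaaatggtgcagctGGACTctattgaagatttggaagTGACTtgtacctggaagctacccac

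The second group holds the strongest regions at promoters of either strand, in exons and between genes, to show summits of the highest rank in different positions, from coding sequence to intergenic.
ENSG00000290113, exon of a long non-coding RNA at its promoter, chr2:126308227-126308327, minus strand: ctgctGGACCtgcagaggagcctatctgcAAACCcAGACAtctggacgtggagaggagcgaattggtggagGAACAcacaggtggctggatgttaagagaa
TSIX, non-coding exon at a promoter of the opposite strand, chrX:73826824-73826924, plus strand: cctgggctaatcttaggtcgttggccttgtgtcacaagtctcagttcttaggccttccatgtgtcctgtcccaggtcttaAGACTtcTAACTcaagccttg
NALF1, coding exon, chr13:107865818-107865918, minus strand: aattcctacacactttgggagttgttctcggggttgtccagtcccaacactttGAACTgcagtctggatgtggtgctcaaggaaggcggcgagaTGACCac
Intergenic, nearest gene ENSG00000287428, chr10:3318534-3318634, plus strand: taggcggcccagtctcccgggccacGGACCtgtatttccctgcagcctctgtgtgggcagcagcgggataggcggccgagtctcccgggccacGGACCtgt
Every window held at least 1 DRACH match, and the ENSG00000290113 window held 4. Of these 8 windows, that of PRAME alone held GGACU, near the summit.

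The lists held 35577 to 44043 peaks in K562, 29511 to 39707 in NB4 and 22635 to 27358 in HepG2 on these chromosomes. Depth recovered from fold and p-value at the summits was 12.6 M to 25.6 M effective reads (M, mega) in the 6 K562 libraries and 10.8 M to 21.9 M in 5 NB4 libraries. It was not recovered for the HepG2 libraries and 1 NB4 library, whose pileups were not whole numbers. K562-only regions took 13.6% to 17.3% of the peaks of a K562 library. Because HepG2 lists were shorter, the absence of a peak there is a weaker statement than its presence in K562. With the same number of peaks from each list, the 22635 best, 2752 regions met the rule. RBFOX2, the gene targeted by the hairpin, held 1 summit in each K562 WT library, 2 or 3 in Control and 3 in each KD library, which does not measure the knockdown.

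Marker genes followed the labels of the lines. Of 48 genes of an erythroid list, 28 held a summit on their strand in all 6 K562 libraries, 5 in both HepG2 libraries and 11 in all 6 NB4 libraries. Of 28 hepatocyte genes, 11 held a summit in both HepG2 libraries and 0 in all libraries of K562 or of NB4. Of 24 granulocyte and monocyte genes, 14 held a summit in all NB4 libraries, against 4 in K562 and 3 in HepG2. HBA2, HBB and ALAS2, defining genes of mature erythroid cells, held 0 summits in every K562 library, whereas GATA1, TAL1 and KLF1 held at least 1 in each.

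Near the rule, 2005 regions had a peak in 5 of 6 K562 libraries and in no other line, and 856 had a peak in all 6 and in 1 other library. K562 Control 2 was the missing library in 709 of the 2005, and HepG2 WT 2 the extra library in 236 of the 856. The members with the lowest -log10 q in their weakest library were an intron region of HBG1 at 2.16, an exon region of PSMD5 at 2.23 and an exon region of EMC1 at 2.51. Over the PSMD5 region, a K562 peak on the opposite strand had the higher -log10 q in all 6 libraries. The regions just outside, with a single weak peak elsewhere, lay in GART (-log10 q of 2.06 in HepG2 WT 1), ENSG00000291117 (2.21 in HepG2 WT 2) and ENSG00000274276 (2.27 in HepG2 WT 2). Of the 5461 members, 4905 or 89.8% had a -log10 q of at least 10 in all 6 K562 libraries.

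K562-only regions were of middling rank within the K562 lists. Their median percentile of -log10 q, the rank of the best peak among all peaks of its library, was 59.1 and 58.6 in WT 1 and 2, 57.9 and 57.6 in Control 1 and 2, and 61.1 and 57.5 in KD 1 and 2. The comparator was the 16404 regions with a peak in all 6 K562 libraries and in at least 1 other library, called shared regions. Shared regions had median percentiles of 69.8 to 74.8, above the K562-only regions in each of the 6 libraries. The median fold of IP signal over local background was 6.69 to 9.37 at K562-only and 8.81 to 12.4 at shared regions. Where it could be recovered, the median local mean was the same at K562-only and shared regions within each library, at 7.45 to 15.02 reads. With the same median in both sets, the fold at the typical region is not taken here as a measure against local transcript level. Depth was computed from the smallest local mean of each library, so this mean goes with depth by construction. At the weakest of the 6 libraries, 14.5% of K562-only and 34.1% of shared regions had a -log10 q of at least 100. K562-only regions were also narrower, with a median width of 537 bases (5th to 95th percentile 221 to 1791) against 715 (276 to 2179), although merging over more libraries widens shared regions by construction. Ranks are those of the best peak in a region, and a wider region can draw it from more peaks. What part this had in the higher rank of shared regions was not tested. Ranks of K562-only regions correlated between libraries with Spearman values from 0.599 (Control 2 with WT 1) to 0.94 (WT 1 with WT 2) over 5461 regions, as a description.

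**Figure D1:**
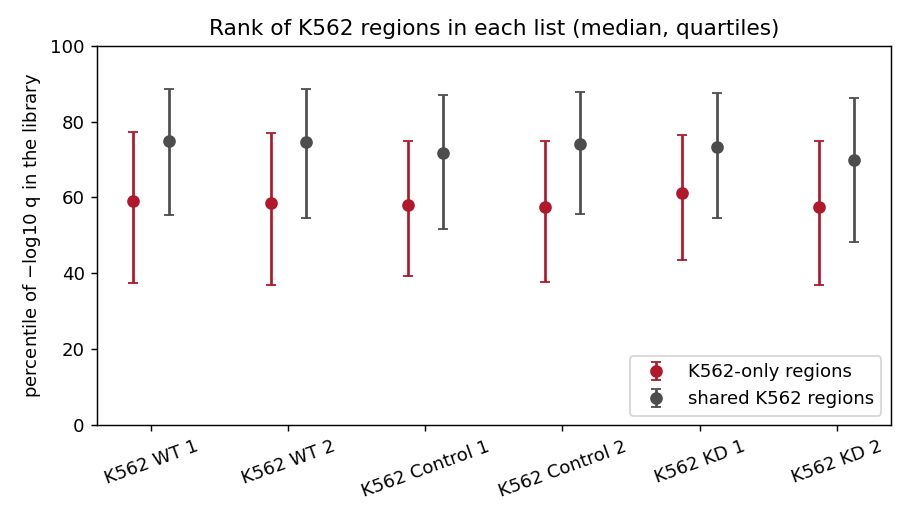
Percentile of -log10 q (vertical axis, 0 to 100, within each library) of K562-only regions (red) and shared regions (grey) in the 6 K562 libraries. Points are medians over regions and bars span the quartiles. Medians of K562-only regions lay between 57.5 and 61.1 and those of shared regions between 69.8 and 74.8.

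The position of K562-only regions differed from that of shared regions most in introns and between genes. Introns held 40.5% of K562-only regions (Wilson 95% interval 39.2% to 41.8%) and 21.7% of shared regions (21.1% to 22.4%). Intergenic sequence held 19.0% (17.99% to 20.1%) against 2.86% (2.61% to 3.13%). Exons held 16.0% against 28.2%, and transcript ends 11.4% against 24.8%. Promoters, taken as the 1000 bases before a transcript start of either strand and the 100 after it, held 13.2% (12.3% to 14.1%) against 22.4% (21.8% to 23.1%). Intervals cover counting error alone, and regions of 1 transcript are not independent of each other.

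HepG2-only regions (3969, present in both HepG2 libraries and no other) and NB4-only regions (2915, present in all 6 NB4 libraries and no other) served as the most alike sets. Introns held 35.0% of HepG2-only and 40.2% of NB4-only regions, the latter close to the K562-only share. Intergenic shares were 10.1% (9.20% to 11.1%) in HepG2-only and 12.4% (11.2% to 13.6%) in NB4-only regions, below the 19.0% of K562-only regions with intervals apart. Promoter shares were 16.3% and 16.8%. The sets differ in the number of libraries demanded, so these values are set side by side without a test.

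On the strand of the peak, coding sequence held 8.13% of K562-only regions (7.43% to 8.89%) and 30.7% of shared regions. The 3′ UTR held 4.63% against 18.2%. A summit within 200 bases of an annotated stop codon, the classical place of m6A in messenger RNA, was found in 4.50% (3.99% to 5.09%) of K562-only and 19.5% (18.9% to 20.1%) of shared regions. It was found in 9.42% of HepG2-only and 6.52% of NB4-only regions. Introns of protein-coding genes held 22.1% of K562-only and 22.3% of shared regions, while introns of non-coding genes held 19.0% (18.01% to 20.1%) against 4.09%. In HepG2-only and NB4-only regions that share was 10.7% and 8.44%. Sequence inside a gene of the opposite strand alone held 8.46% against 3.68%. Of the 720 promoter regions, 479 or 66.5% (63.0% to 69.9%) lay on the strand of a transcript start, against 76.8% (75.4% to 78.1%) of shared promoter regions.

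Of the 5461 K562-only regions, 3779 lay in 2014 genes on their own strand or up to 1 kb upstream. Protein-coding genes held 57.1% (55.5% to 58.7%) of these regions and long non-coding RNA genes 37.6% (36.1% to 39.2%). Among shared regions in genes the shares were 87.0% and 10.2%. Long non-coding RNA genes held 22.3% of such HepG2-only and 17.98% of such NB4-only regions. Pseudogenes held 183 K562-only regions, or 4.84%.

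A gene with a K562-only region often carried m6A elsewhere in the other lines. Of the 3779 regions in same-strand genes, 1593 or 42.2% (40.6% to 43.7%) lay in a gene with a HepG2 or NB4 summit. The share was 54.3% (52.2% to 56.4%) in protein-coding genes and 26.04% (23.8% to 28.4%) in long non-coding RNA genes. The transcript was thus represented by a peak in another line for fewer regions of long non-coding RNA genes than of coding genes. The nearest HepG2 or NB4 peak on the same strand lay a median of 94.4 kb away. It lay within 500 bases of 240 regions, or 4.39%, and within 10000 bases of 1291, or 23.6%. On the opposite strand, a HepG2 or NB4 peak lay over 137 regions, or 2.51%.

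**Figure D2:**
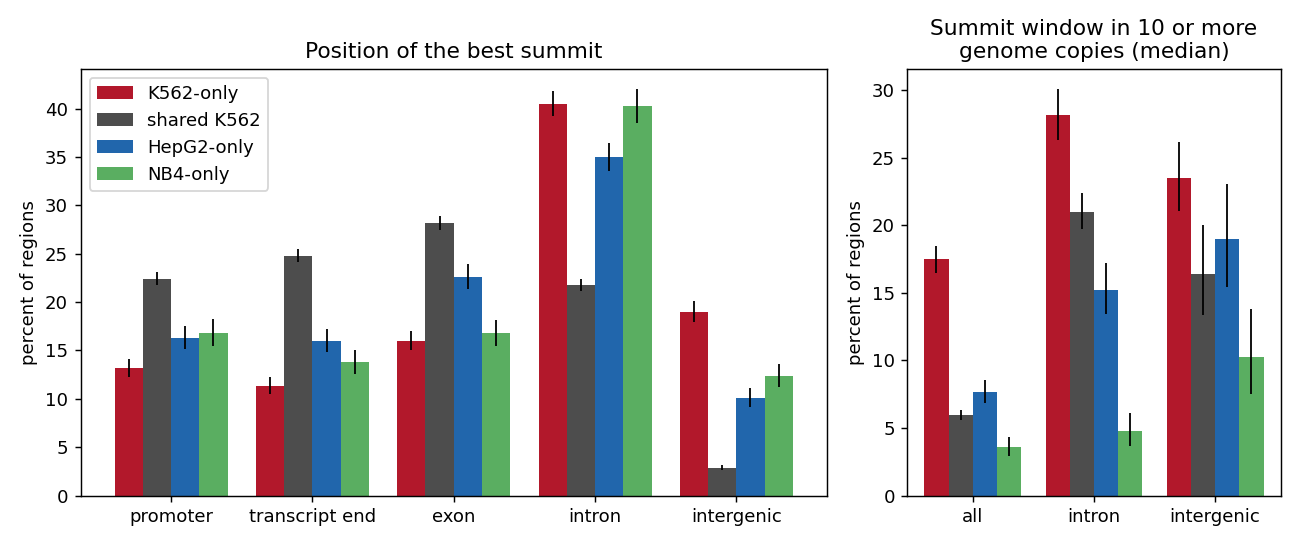
Left, percent of regions (vertical axis) by position of the best summit for K562-only, shared K562, HepG2-only and NB4-only regions. Right, percent of regions whose summit window has a median of at least 10 genome copies of its 31-mers, over all regions and within introns and intergenic sequence. Bars start at 0 and lines are Wilson 95% intervals. Intergenic K562-only regions stand at 19.0% against 2.86% for shared regions, and windows of at least 10 copies at 17.5% against 5.98%.

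Summit windows of K562-only regions were more often made of sequence that recurs in the genome. For each window of 151 bases, every stretch of 31 bases was counted in hg38 on both strands. All stretches occurred once in 45.9% of K562-only windows (44.6% to 47.2%) and in 70.5% of shared windows (69.8% to 71.2%). The median count reached 10 in 17.5% (16.5% to 18.5%) of K562-only, 5.98% (5.63% to 6.35%) of shared, 7.66% of HepG2-only and 3.57% of NB4-only windows. Position moved with this value, since recurring windows are most frequent in introns and between genes. Within introns the shares were 28.2% (26.3% to 30.1%) in K562-only, 21.0% (19.7% to 22.4%) in shared, 15.2% in HepG2-only and 4.77% in NB4-only windows. Within intergenic sequence they were 23.5% (21.0% to 26.2%) and 16.4% (13.3% to 20.04%) in K562-only and shared windows. HepG2-only intergenic windows stood at 19.0% (15.4% to 23.1%), an interval that overlaps that of K562-only windows, and NB4-only at 10.2% (7.53% to 13.8%). Reads from such sequence can align to several places, and what part this had in the results was not tested.

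GGACU stood at the summits of K562-only regions about as often as at shared regions, although their sequence was poorer in G and C. The median GC content of the windows was 43.0% in K562-only and 50.3% in shared regions. GGACU was present on the strand of the peak in 30.7% (29.5% to 31.9%) of K562-only windows and 29.2% (28.5% to 29.9%) of shared windows. Windows 300 bases away held it in 11.6% and 12.3%, and the opposite strand of the summit window in 7.91% and 10.0%. Over all 86263 regions the share was 23.3%. AGACU, another DRACH form, was present in 33.1% (31.8% to 34.3%) of K562-only and 27.7% (27.0% to 28.4%) of shared windows, and GAACU in 25.1% and 22.4%. Any DRACH match was present in 99.1% and 98.2%, and in 94.9% and 92.2% of the windows 300 bases away. HepG2-only and NB4-only windows held GGACU in 21.3% (20.1% to 22.6%) and 23.3% (21.8% to 24.8%). Within K562-only regions the share ran from 26.5% in exons to 33.7% in intergenic sequence, with 32.2% in introns and 28.3% at promoters, so summits away from exons held the motif no less often.

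Motifs that the study ties to RBFOX2 were also counted, on both strands. UGCAUG, its canonical RNA motif, was present in 4.32% (3.81% to 4.89%) of K562-only windows on the strand of the peak and in 3.78% of windows 300 bases away. Shared windows held it in 3.55% (3.28% to 3.84%), the same as over all 86263 regions. On the opposite strand it was present in 7.10% of K562-only and 4.40% of shared windows. AGAUG was present in 20.5% (19.4% to 21.5%) of K562-only and 22.0% (21.4% to 22.6%) of shared windows, and in 22.8% over all regions.

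**Figure D3:**
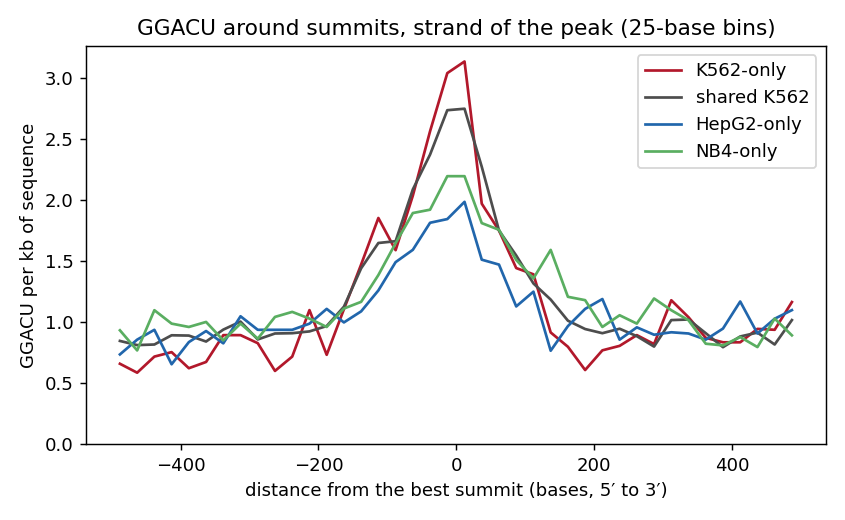
Number of GGACU motifs per kb of sequence (vertical axis) by distance from the best summit in bases (horizontal axis, bins of 25 bases, strand of the peak) for 4 sets of regions. K562-only regions reached 3.13 per kb just downstream of the summit and shared regions 2.75, with HepG2-only at 1.99 and NB4-only at 2.20 in the same bin.

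The strongest K562-only regions were chosen by their percentile in the weakest K562 library, so their rank is a description. First came an intergenic region on chromosome 10 (chr10:3317905-3319562, plus strand), 20447 bases from ENSG00000287428. The region has a summit window with a median of 2 genome copies, so its exact origin is uncertain. Its fold was 33.1 and 37.9 in WT, 63.0 and 46.5 in Control and 59.9 and 65.1 in KD, and its percentile was at least 99.97 in each. It was followed by regions in an exon of ENSG00000290113, the 3′ UTR of BTNL9, a butyrophilin-like membrane protein, the coding exon of NALF1, an auxiliary factor of the NALCN sodium channel, and the 3′ UTR of KLF1. The remaining 5 lay in TSIX, an RNA antisense to XIST, in TRPS1, a GATA-type zinc finger repressor, in ENSG00000260126, whose window has a median of 162 genome copies so that its origin is uncertain, in ABO, the blood group glycosyltransferase, and in COL6A5, a collagen VI chain. All 10 had a percentile of at least 98.7 in every K562 library. Of the 9 in same-strand genes, 0 lay in a gene with any HepG2 or NB4 summit. A weaker K562 peak on the opposite strand lay over 7 of the 10 in at least 1 library, and in 0 of the 10 did it have the higher -log10 q. Over all K562-only regions, 361 or 6.61% lay under such a peak, which had the higher -log10 q in at least 4 libraries for 136.

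Erythroid genes held 38 K562-only regions in 16 of 48 listed genes. That is 33.3% of the list, beside a background of 6.48% of all 19970 protein-coding genes and 16.5% of the 7829 protein-coding genes with a summit in all 6 K562 libraries. Genes of the list with a summit in all K562 libraries and in no library of the other lines numbered 11, against 514 of the 7829. Of the 38 regions, 19 lay in introns, 10 in coding sequence, 5 in 3′ UTRs, 3 in non-coding exons and 1 in a 5′ UTR. The lists were drawn up with earlier results of these data known.

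Among these genes were 4 regulators of the erythroid programme. KLF1, the transcription factor that activates adult globin and many red cell genes, held a region of 2330 bases with its best summit in the 3′ UTR and reaching over most of the short gene (chr19:12884298-12886627, minus strand). Its fold was 26.5 and 31.3 in the WT libraries, 58.1 and 45.8 in Control and 52.9 and 49.5 in KD. Both WT folds lay below the other 4. The percentile was at least 99.6 in all 6, too near the top of the scale to show a shift in rank. TAL1, a basic helix-loop-helix factor of blood progenitors, held a 3′ UTR region (chr1:47218920-47220301, minus strand) with folds of 19.4, 21.0, 51.5, 34.0, 47.3 and 52.7 in WT 1, WT 2, Control 1, Control 2, KD 1 and KD 2. Both genes held summits in no HepG2 or NB4 library. GATA1, the master regulator of the lineage, held a coding region (chrX:48793602-48794236) of lower rank, with percentiles of 54.3 and 66.7 in WT, 77.7 and 59.8 in Control and 58.1 and 59.1 in KD. NB4 libraries held up to 2 summits in GATA1. GFI1B, a repressor needed for red cells and megakaryocytes, held an intron region with percentiles of 58.6 and 55.9 in WT against 87.4 to 91.5 in the 4 hairpin libraries, which did not overlap with WT.

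ANK1 and SPTB, genes of the red cell membrane skeleton, held 18 of the 38 erythroid regions. ANK1, erythroid ankyrin, had 13 and SPTB, the beta chain of spectrin, had 5. Both coding regions of SPTB printed above ranked high, the first with folds of 21.4 and 21.8 in WT, 32.1 and 33.2 in Control and 31.4 and 49.96 in KD (chr14:64793019-64794015). The second had folds of 25.04 and 16.5 in WT, 37.2 and 28.8 in Control and 40.6 and 34.2 in KD (chr14:64786320-64787305). The other 3 SPTB regions were weaker, and the weakest had percentiles of 1.05 and 4.24 in WT and 33.1 to 44.6 in the hairpin libraries. HepG2 and NB4 libraries held no summit in SPTB and up to 1 in ANK1.

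Blood group and globin genes followed. KEL, the Kell antigen, held a region over intron sequence (chr7:142944742-142945707) with folds of 18.3 and 17.0 in WT, 10.8 and 20.5 in Control and 25.3 and 30.2 in KD. Both KD folds at KEL lay above the other 4, and WT and Control folds overlapped. In percentile the groups overlapped, with 91.3 and 97.8 in Control and 97.3 and 98.0 in KD. RHAG, the Rh-associated glycoprotein, held 1 region with percentiles of 38.4 to 60.998. The globin regions were assigned to HBE1, embryonic epsilon-globin, with 4, and to HBG1, a foetal gamma-globin, with 1. In the annotation used here the gene models of HBE1 and HBG2 span 237 kb and 252 kb and overlap, so the assignment to HBE1 rather than HBG2 is uncertain. The strongest HBE1 region (chr11:5292844-5293560) had folds of 9.90 and 10.7 in WT, 12.7 and 9.26 in Control and 8.01 and 13.1 in KD, and its window has a median of 3 genome copies. Another HBE1 region (chr11:5293708-5293968) has 67. HBG1 was the weakest member of all, and its window has a median of 2 genome copies. HBG2 is a near-identical gene, so reads may be split between them. GYPE, a glycophorin, held a wide intron region with folds of 13.7 to 27.8, but its window recurs with a median of 2821 copies, so its origin from that gene is uncertain.

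Haem synthesis and other red cell enzymes carried few regions. UROD, uroporphyrinogen decarboxylase, held 1 coding region with percentiles of 60.7 and 65.8 in WT and 71.3 to 77.7 in hairpin libraries. BLVRB, a biliverdin reductase, held 1 with percentiles of 12.04 to 50.04. HEMGN, a nuclear protein of haematopoietic cells, held 1 with folds of 6.87 and 5.45 in WT and 14.7 to 23.3 in hairpin libraries. Of the 48 genes, 32 held no K562-only region, among them EPOR, TFRC and SLC25A37, which held K562 summits in all libraries.

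The other lists held fewer K562-only regions than the erythroid list. Oncofetal and cancer-testis genes, silent in most adult tissues, held 9 in 5 of 34 annotated genes, or 14.7%. The background was 6.48% of protein-coding genes and 16.5% of those with a summit in all 6 K562 libraries. Of the 9 regions, 0 lay in a gene with a HepG2 or NB4 summit. PRAME held 2 regions with folds of 4.84 and 5.31 in WT, 7.21 and 8.83 in Control and 9.57 and 11.5 in KD at the stronger. TEX15, a testis gene, held 4, CTCFL, a paralog of CTCF, 1, and MAGEA3 and MAGEA6 1 each. The MAGEA3 and MAGEA6 windows have a median of 2 genome copies, so reads may be split between them. BCR-ABL1 signalling genes held 3 regions in 3 of 39 genes, or 7.69%, AKT2, STAT5B and JAK2, all weak with lowest percentiles of 22.4 to 26.7, although 29 of the 39 held a summit in all K562 libraries. Of 24 megakaryocyte genes, F2RL3 and MEIS1 held 1 each, or 8.33% of the list. Of 19 genes of the m6A methyltransferase complex, readers and erasers, RBM15 held 1, in an intron, or 5.26%. These 3 shares lay near the background of 6.48% and below that of 16.5%. Of the 19 m6A genes, 18 held a summit in all K562 libraries. Hepatocyte and granulocyte and monocyte genes held 0.

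**Figure D4:**
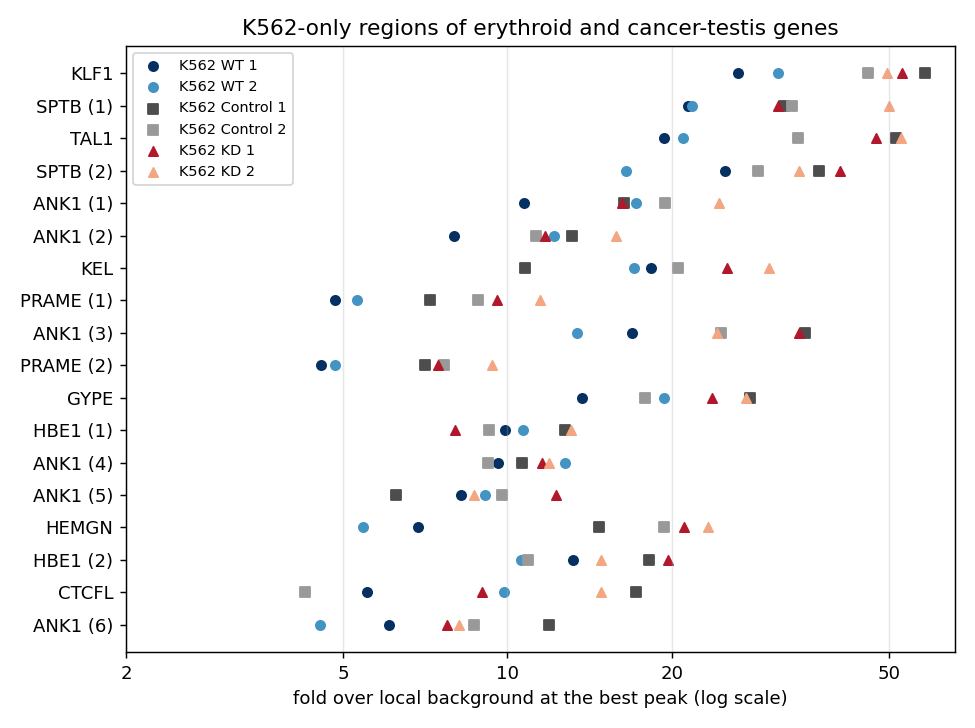
Fold over local background (horizontal axis, log scale) of the 18 highest ranked K562-only regions of erythroid and of oncofetal and cancer-testis genes, 1 row a region and 1 point a library. Numbers in brackets tell regions of 1 gene apart. KLF1 ran from 26.5 in WT 1 to 58.1 in Control 1. WT points (circles) lay to the left of the others in KLF1, TAL1, HEMGN, SPTB, PRAME and some ANK1 regions. In the remaining rows, among them KEL and GYPE, they did not. The median fold over all K562-only regions was also lower in WT, at 6.74 and 6.69, than in hairpin libraries, at 7.61 to 9.37.

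Some K562-only regions were gathered in long genes and in runs without shared regions. Of the 2014 genes, 622 held at least 2, 140 at least 5 and 37 at least 10. ADGRV1, an adhesion receptor of the inner ear and brain, held 27 over 635 kb (chr5:90529344-91164437, plus strand), of which 13 lay in coding sequence. HTR1F, a serotonin receptor, held 20, of which 18 were intronic. The other 4 genes with most regions were the long non-coding RNA genes EPIC1 with 23, ENSG00000287474, LINC00534 and MIR3667HG with 22 each, mainly intronic. In 5 of the 6, HepG2 and NB4 libraries held 0 summits. MIR3667HG differed, with up to 23 summits in an NB4 library, 0 in HepG2 and 47 to 62 in K562. The median fold over the regions of ENSG00000287474 was 9.85 and 11.3 in WT, 11.3 and 7.99 in Control and 11.1 and 10.5 in KD, with overlapping groups. In MIR3667HG it was 5.19 and 5.29 in WT, 8.66 and 8.02 in Control and 7.62 and 7.77 in KD. In ADGRV1 it was 6.56 and 6.72 in WT, 9.67 and 8.29 in Control and 10.6 and 11.03 in KD. WT lay below the hairpin libraries in the last 2 genes and not in the first.

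**Figure D5:**
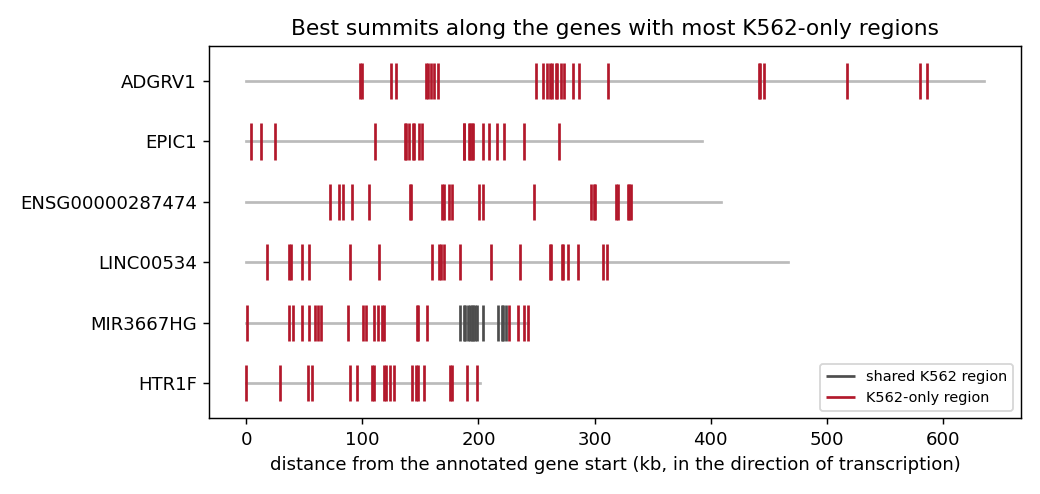
Best summits of K562-only regions (red) and shared regions (grey) along the 6 genes with most K562-only regions, by distance from the annotated gene start in kb. Grey lines span the gene. Shared regions were assigned to MIR3667HG alone among the 6, between 184 and 224 kb from its start.

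On the scale of 1 Mb, the densest window lay on chromosome X (121 to 122 Mb) with 38 K562-only regions, all on the plus strand, and 1 shared region. MIR3672 was the assigned gene for 16 of them. The next were on chromosome 1 (108 to 109 Mb, 35 regions, 9 shared), around NBPF4 and neighbouring non-coding genes, and on chromosome 10 (3 to 4 Mb, 30 regions, all on the plus strand, 8 shared), which also holds the strongest region. Most regions of the chromosome 1 window have summit windows with a median of at least 2 genome copies, so reads may be split between copies. The longest run of K562-only regions with gaps of at most 50 kb and no shared region between them held 23 regions over 323 kb on chromosome 11, on the plus strand of a cluster of olfactory receptor genes. Runs of at least 2 held 62.8% of K562-only and 76.6% of shared regions, and runs of at least 10 held 9.28% and 7.45%. Run length depends on the number of regions, 5461 K562-only against 16404 shared, so these shares cannot tell which set was gathered more strongly. By chromosome, K562-only regions made up 40.8% of all regions found in all 6 K562 libraries on X and 34.8% on chromosome 18, against 13.2% on chromosome 16 and 14.2% on chromosome 20. The widest regions were those of MUC19, a gel-forming mucin, at 9219 bases, MGC4859 at 6330 bases and 1 on the strand opposite LEPR at 6263 bases. The MUC19 region had folds of 21.7 and 22.98 in WT, 35.6 and 26.5 in Control and 52.8 and 27.3 in KD. Among promoter regions, the one upstream of TNNT1, a troponin T, had folds of 13.8 or less in WT and 41.8 to 60.6 in the hairpin libraries.

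Whether RBFOX2 depletion moved these regions was compared between Control and KD libraries. The rule demands a peak in both Control and both KD libraries, so a complete loss cannot be seen and rank alone can move. The mean percentile of K562-only regions was 56.1 and 55.5 in Control 1 and 2 and 59.1 and 55.3 in KD 1 and 2. KD 1 was the highest and KD 2 the lowest of the 4, so the groups overlapped. The means were 57.2 ± 2.68 in KD and 55.8 ± 0.434 in Control (SD, n = 2 each), a difference of 1.42 within the spread (two-sided exact permutation over libraries, p = 1, where 0.3333 was the lowest p attainable). Without KD 1 the difference was -0.472. Relative to shared regions in the same library, K562-only regions stood at -9.96 ± 0.108 in KD and -12.5 ± 1.82 in Control (SD, n = 2 each), a difference of 2.53 (two-sided exact permutation over libraries, p = 0.3333, the lowest attainable). Depth was 14.8 M and 19.5 M effective reads in Control and 16.4 M and 12.6 M in KD, with overlapping ranges.

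Region by region, 986 of the 5461 K562-only regions, or 18.1%, had both KD percentiles above both Control percentiles, where 13.4% of all regions found in the 6 K562 libraries did. In the other direction 710, or 13.001%, had both KD percentiles below, where 16.3% of all such regions did. Shifts were ranked by the gap between the ranges of both groups. The widest gaps upward lay in an intron of NF1, a RAS inhibitor, with percentiles of 2.28 and 12.8 in Control and 53.5 and 57.9 in KD, in an intergenic region near ENSG00000287027 and in an intron of LINC01088. NF1 has a summit window with a median of 21 genome copies, LINC01088 one with 2270 and the region near ENSG00000287027 one with 3. The widest gaps downward lay in LINC02609, in an intergenic region near ABHD11 and in an intron of KCNJ6, a potassium channel, with percentiles of 61.6 and 60.9 in Control and 34.4 and 25.5 in KD. No test per region was run, and an exact permutation of 2 libraries against 2 cannot give a p below 0.3333.

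WT cells, which carry no hairpin, were compared with the 4 hairpin libraries. The mean percentile of K562-only regions was 56.4 ± 0.195 in WT (SD, n = 2) and 56.5 ± 1.77 in hairpin libraries (SD, n = 4), a difference of -0.070 (two-sided exact permutation over libraries, p = 1, lowest attainable 0.0667). The sign turned with equal list sizes (1.81) and without KD 1 (0.799). Both WT percentiles exceeded all 4 others in 1358 regions, or 24.9%, where 26.6% of all regions found in the 6 libraries did, and both fell below in 1184, or 21.7%, where 20.9% did. Single regions differed widely all the same. A region in an intron of DNAJC7, a heat shock co-chaperone, had percentiles of 95.4 and 96.3 in WT, 23.6 and 32.1 in Control and 6.69 and 5.89 in KD. A region in an intron of GRID1, a glutamate receptor subunit, had 10.9 and 13.6 in WT, 73.5 and 76.5 in Control and 79.7 and 72.9 in KD. The GRID1 window has a median of 4 genome copies, so its origin is uncertain, and the DNAJC7 window has 1. Fold was lower in WT than in hairpin libraries across K562-only regions, with a median of 6.74 and 6.69 in WT, 8.87 and 7.61 in Control and 9.37 and 9.23 in KD. WT lists were also the deepest, at 25.6 M and 24.9 M effective reads, although this depth was itself computed from the local mean. A fold over a higher local mean of 15.02 and 14.6 reads in WT against 7.45 to 11.5 in hairpin libraries is not on the same scale. The part of depth in the lower fold was not tested.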

How the data were processed

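Chromatin-associated RNA of 28 samples was profiled, 14 of them IP libraries with peak lists and 14 inputs that are not analysed here. The authors trimmed reads with Trimmomatic 0.39, aligned them to hg38 with HISAT2 2.1.0, split alignments by strand with SAMtools 1.9 and called peaks with MACS2 for each library and strand. Whether the input was the control of the peak caller is not given in the sources used here. The deposited lists give for each peak a score, a fold (ratio) over local background, a −log10 p and a −log10 q. From these, 495694 peaks were merged per strand and summits were placed in GENCODE 44 genes (pysam 0.24.0, pandas 2.3.3, scipy 1.17.1, numba 0.67.0). Percentiles rank −log10 q within a library. Groups were compared over libraries by exact permutation tests, and the scripts were tested on simulated data. Members and gene lists were chosen with earlier results of these data known. Named regions were the 10 of highest rank in their weakest library, those of listed genes, the 6 genes with most regions, the largest shifts, the 3 widest, the densest windows and those at the edge of the rule. Alternatives changed list size, threshold, merging, strand, promoter, window and libraries used. Some items are not reported here.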

Additional observations from a re-analysis of the deposited data

How the results depend on the processing

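With equal list sizes, 2752 regions met the rule, 33.2% of those in genes had a peak elsewhere in the gene in another line, GGACU stood in 32.3% of windows, and the difference between WT and hairpin libraries turned to 1.81. The share with a peak elsewhere was 38.9% with no other-line peak within 500 bases and 45.1% with summit windows. Promoters held 15.7% when defined as 500 bases to either side of a start and 8.77% on the strand of the region alone. GGACU stood in 23.3% of windows of 50 bases to either side. Leaving out each library in turn gave 5510 to 6311 regions, the most without K562 Control 2. It gave differences of -0.472 to 3.32 between KD and Control (-0.472 without KD 1), 1.25 to 3.82 for the same relative to shared regions, and -0.465 to 0.799 between WT and hairpin libraries (0.068 without WT 2 and 0.799 without KD 1). The cause of these changes was not tested. Of 19 alternatives, 18 left the number of regions within 1.5 times. With the replicate number as a block, KD differed from Control by 1.42 (exact sign flips, p = 1), by 2.53 relative to shared regions (exact sign flips, p = 0.5), and WT from hairpin libraries by -0.070. Deviations of same-numbered samples correlated at -0.086 to 0.0053, so these percentiles show no pairing by number. Whether same-numbered samples were prepared together is not given in the labels. Depth of HepG2 was not recovered, which limits statements on absence there.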
